A study of Mus musculus with 6 samples.

Results

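A set of 68 protein-coding genes of the cell division cycle were followed in the mouse hippocampus 24 h after traumatic brain injury (TBI). They are defined by symbol, with no measured value in the rule, as the A, B, D and E cyclins, the numbered cyclin-dependent kinases (CDKs), symbols that begin with Cdkn1, Cdkn2 or Cdkn3, the MCM, E2F, Aurora and polo-like kinase (Plk1 to Plk4) genes, the pocket proteins Rb1, Rbl1 and Rbl2, and the markers Mki67, Top2a and Pcna. The 68 members were drawn from 52550 genes listed for each library, of which 21819 are annotated as protein-coding in GENCODE vM21. By role, 26 were put among the proliferative (S and M phase) genes, which act in DNA replication and mitosis. Among the others were 5 D cyclins and their kinases, 7 CDK inhibitors, 6 neuronal CDKs, 8 transcriptional or other CDKs, and 6 pocket proteins and other E2Fs. The rest were the inducible kinases Plk2 and Plk3, 5 genes known mainly from germ cells or meiosis, and 3 further genes with a Cdkn symbol. Those 3 lie outside the Cip/Kip and INK4 families of CDK inhibitors.

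The libraries came from adult male mice (C57BL / 6 in the labels, C57B6/J in the methods), 3 sham-operated (Sham1 to Sham3) and 3 with TBI (TBI1 to TBI3), with 1 library per mouse. In the TBI group a controlled cortical impact of moderate severity was delivered through a craniotomy over the right parietal bone, and sham mice had the craniotomy, the anaesthesia and the suturing without the impact. The surgery is therefore shared by both groups. Whole hippocampal tissue was taken, and the methods describe exposing it on both sides of the brain without saying which side entered a library. In bulk tissue, fewer cells of a type cannot be told apart from less RNA per cell.

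The counts summed to between 31630936 and 41771872 per library, and 18795 genes passed the filter for low counts. Levels are given as CPM, the count relative to the scaled total of its library, and SE stands for the standard error of a log2 fold change. Some libraries stood apart. TBI1 carried markers of the striatum, a region outside the hippocampus: the 9 striatal markers summed to 4966 CPM, against 162 to 247 CPM in the other 5 libraries, all 9 were highest there, and 7 of 8 markers of the dentate gyrus and CA fields were lowest there, with C1ql2 at 2.45 CPM against 39.6 to 86.0 CPM elsewhere. Of these 8 markers 7 had a log2 fold change below 0 (median -0.91), and without TBI1, or without both TBI1 and Sham2, all 8 did (medians -0.53 and -0.65). Sham2 had the lowest levels of all 7 oligodendrocyte markers, which summed to 2902 CPM against 8652 to 10650 CPM elsewhere. It also had the highest sum of the 10 markers of infiltrating leukocytes, 20.6 CPM against 2.86 to 12.7 CPM. Markers of choroid plexus and ependyma summed to 65.6 CPM in Sham2, 266 CPM in TBI1 and 273 CPM in TBI3, against 2043 to 2359 CPM in the other 3 libraries. TBI3 was the lowest library for 18 of the 63 tested members (28.6%, against 18.0% of all genes). The part of these differences in the results was not tested. The main counts are therefore also given without Sham2 and TBI1, as are a number of single values.

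Progress through the cell cycle is driven by CDKs that are active only while bound to a cyclin. D cyclins with Cdk4 and Cdk6 phosphorylate the retinoblastoma family of pocket proteins, which releases E2F factors to switch on the genes of DNA replication. The MCM complex is loaded on origins of replication in G1, which licenses each origin to fire once. CDK inhibitors of the Cip/Kip and INK4 families hold the kinases in check. Most hippocampal neurons have left the cycle for good, and dividing cells are found mainly among the progenitors of the dentate gyrus and among glia. Several CDKs are used by neurons for purposes other than division, of which Cdk5, activated by p35 and p39, is the best known.

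The upstream sequences of 4 members are shown as examples of E2F and mitotic promoter elements, which part of the proliferative genes carry. RefSeq windows (GRCm38.p6, 250 bases before to 50 after the start site) were at hand for 55 of the 68 members and were searched on both strands. An E2F element (TTTCCCGC, TTTGGCGC, TTTCGCGC or TTTGCCGC) was in the window of 9 of 22 proliferative genes (40.9%), and in 4 of the 5 MCM2 to MCM7 genes that had a window, against 2.6% of the 27025 genes in the table. The cell cycle homology region (CHR, TTTGAA), known from genes of G2 and mitosis, was in 9 of 22 (40.9%) against 20.2% of all genes, and the CCAAT box in 18 of 22 (81.8%) against 41.1%. Of the 4 neuronal CDKs with a window (Cdk5 and Cdk17 had none), 0 held an E2F element, 1 a CHR and 2 a CCAAT box. These are too few genes to set against the shares of all genes. The E2F elements overlapped each other where a forward and a reverse match share their central bases, as in Mcm5 and Mcm6. The 200 bases before the start site are given 5′ to 3′ on the strand of the gene, with matches in capitals. Mcm6 and Plk1 were the proliferative genes with the lowest p-values, Mcm5 was highest in TBI1, and Top2a is a mitotic gene.
Mcm6 (chr1:128359706-128359905, minus strand): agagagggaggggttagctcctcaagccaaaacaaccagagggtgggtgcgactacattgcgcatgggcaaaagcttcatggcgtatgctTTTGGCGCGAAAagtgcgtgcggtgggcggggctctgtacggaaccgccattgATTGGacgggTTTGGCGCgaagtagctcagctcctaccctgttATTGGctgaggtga
Mcm5 (chr8:75109309-75109508, plus strand): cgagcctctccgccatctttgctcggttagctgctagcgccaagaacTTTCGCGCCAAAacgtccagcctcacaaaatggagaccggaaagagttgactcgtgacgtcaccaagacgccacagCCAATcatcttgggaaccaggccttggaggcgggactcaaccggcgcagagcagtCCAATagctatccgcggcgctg
Top2a (chr11:99024190-99024389, minus strand): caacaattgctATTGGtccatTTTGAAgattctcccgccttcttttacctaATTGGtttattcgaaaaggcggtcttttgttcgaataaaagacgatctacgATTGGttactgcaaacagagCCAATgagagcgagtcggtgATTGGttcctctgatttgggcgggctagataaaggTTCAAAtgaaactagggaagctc
Plk1 (chr7:122159235-122159434, plus strand): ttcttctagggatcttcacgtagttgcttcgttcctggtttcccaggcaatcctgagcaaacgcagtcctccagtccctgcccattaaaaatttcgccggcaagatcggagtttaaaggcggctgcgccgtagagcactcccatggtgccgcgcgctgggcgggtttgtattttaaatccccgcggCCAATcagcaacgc
Mcm6 and Mcm5 carry E2F and CCAAT matches, Top2a carries CHR and CCAAT matches and no E2F match, and Plk1 carries a CCAAT match here and a CHR match 30 bases after the start site.

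Whether injury changed the transcripts of these genes was asked by comparing TBI with sham over all genes at once, by the quasi-likelihood test of edgeR with p-values adjusted after Benjamini-Hochberg. Of the 68 members 63 passed the filter and 0 were called with the study's thresholds (adjusted p under 0.1, at least a 1.5-fold difference either way, and p under 0.05), as were 0 of the 18795 genes tested (0%). The lowest adjusted p among the members was 0.982 in edgeR, and DESeq2 with its defaults also called 0 members, against 46 of 28118 genes (0.164%). Of the 63, 6 (9.52%) had an unadjusted p under 0.05, 3 higher and 3 lower in TBI, against 4.29% of all genes tested (2.16% higher and 2.13% lower). DESeq2 gave 7 members at that level, against 4.11% of the genes it tested. In 9 members the libraries of the groups were fully separated, 3 higher and 6 lower in TBI, a share of 14.3% against 10.2% of all genes (4.77% higher and 5.45% lower). Without Sham2, 4 members had an unadjusted p under 0.05 (3.39% of all genes) and 16 were separated (20.4% of all genes). Without TBI1 the counts were 8 (4.33%) and 18 (22.7%), and without both libraries they were 8 (5.02%) and 27 (37.1%). The members with an unadjusted p under 0.05 were Cdkn2d, Cdkn1a, E2f6 and Plk1 without Sham2. Without TBI1 they were Plk1, Mcm6, Cdkn1b, Ccnd3, Plk2, Cdk17, E2f3 and Cdk13, and without both Cdkn1a and Cdkn2d took the places of Plk1 and Cdk13. In these fits 0 members were called, against 0%, 0.00518% and 0.0159% of all genes, and the lowest adjusted p of a member in edgeR was 0.853, without both libraries. With each of the other libraries left out, members with an unadjusted p under 0.05 numbered 3 without Sham1 (2.49% of all genes), 3 without Sham3 (4.52%), 4 without TBI2 (5.82%) and 5 without TBI3 (2.88%). The separated members numbered 10 (18%), 18 (20.8%), 15 (21.4%) and 15 (17.5%) in the same order. With the replicate number as a block, 2 members had an unadjusted p under 0.05, against 3.85% of all genes. The log2 fold change took the other sign in 10 of the 63 members without Sham2 (15.9%, against 19.3% of all genes), in 17 without TBI1 (27%, against 16.6%) and in 16 without both (25.4%, against 23.1%).

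**Figure D1:**
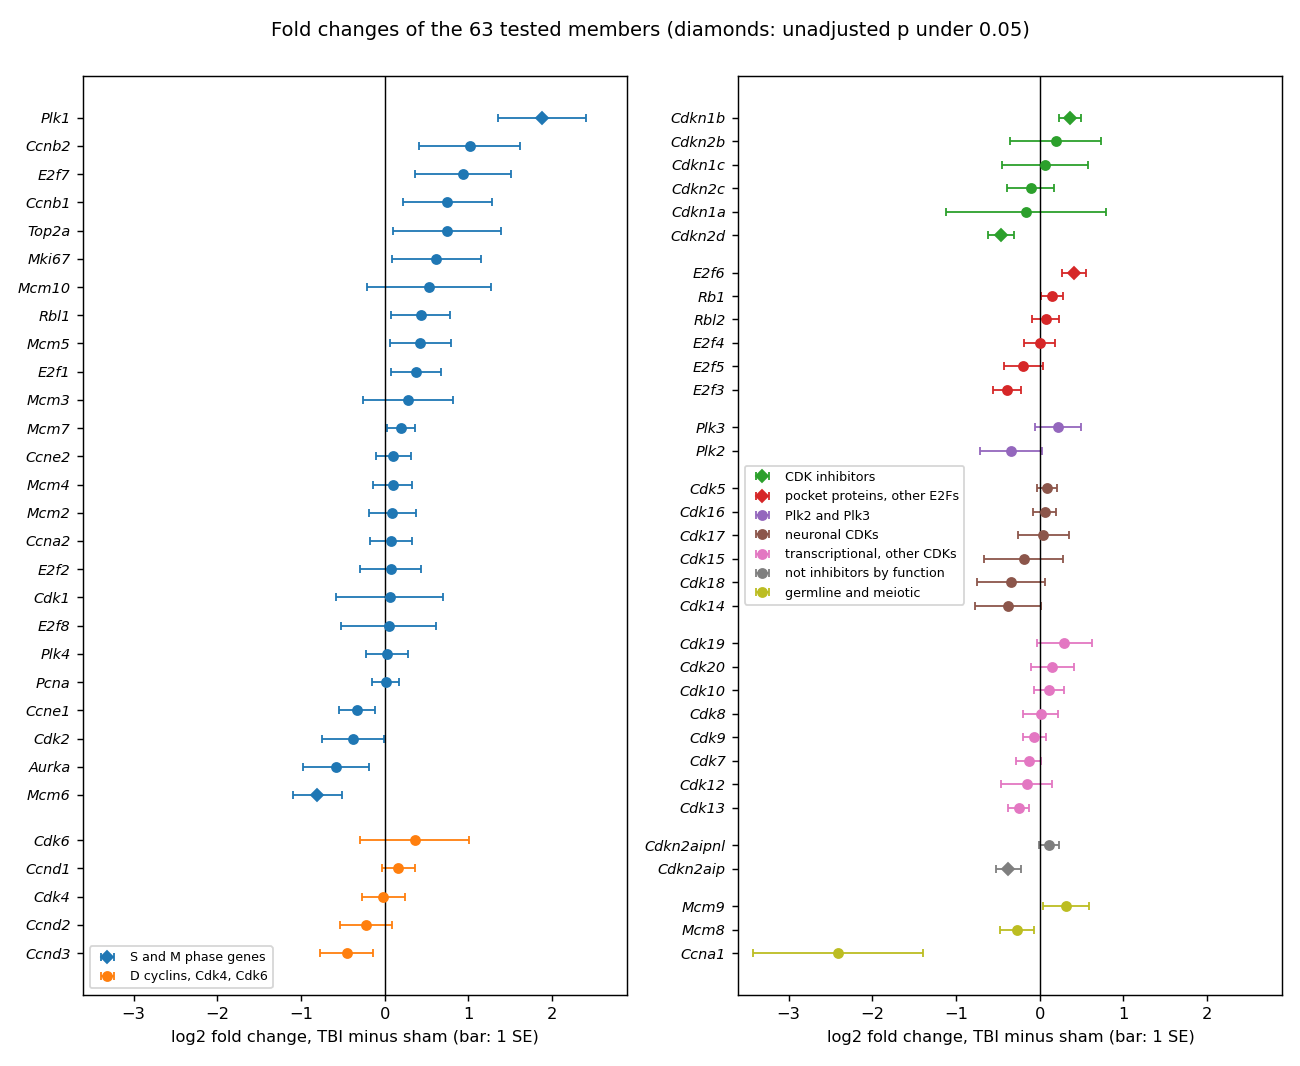
Log2 fold change, TBI minus sham, of the 63 members that passed the filter (x axis; bars are 1 SE from edgeR), with genes on the y axis grouped by role and coloured by it. The 6 diamonds are the members with an unadjusted p under 0.05, Plk1, Mcm6, Cdkn1b, Cdkn2d, E2f6 and Cdkn2aip, and 21 of the 25 proliferative genes lie to the right of 0.

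Most proliferative genes had values slightly above 0, and their median moved when single libraries were left out. Of the 26 genes 25 were tested, with 1 reaching an unadjusted p under 0.05 in each direction. A log2 fold change above 0 was found in 21 of the 25 (84%, against 51.4% of all genes), and their median was 0.10 against 0.0091 for all genes. The median was smaller than its spread between libraries, an SD of 0.21. In TBI1 14 of the 25 had their highest level (56%, against 19.7% of all genes), in Sham2 7 and in TBI3 4. With the sham mean set to 0, their mean log2 level was 0.57, 0.081 and -0.039 in the 3 TBI libraries and lay between -0.17 and 0.10 in the sham libraries. Without Sham2 the median was 0.31 with 19 of 25 above 0 (all genes: 54%). Without TBI1 it was -0.041 with 10 of 25 above 0 (all genes: 49.9%), and without both Sham2 and TBI1 it was 0.14 with 14 of 25 above 0 (all genes: 52.1%). The median also rose without TBI2, to 0.27, and without TBI3, to 0.30. Without Sham1 and without Sham3 it was 0.14 and 0.12. TBI1 was also the library with the highest levels of the striatal markers and of 7 of 8 microglial markers, which summed to 721 CPM there against 373 to 486 CPM elsewhere. The 7 markers of neural progenitors and neuroblasts, 6 of which had a log2 fold change below 0 (median -0.27), went both ways there. Their sum was 76.3 CPM against 125 to 204 CPM elsewhere, largely through Hopx at 18.4 CPM, and 2 of the 7 were lowest in TBI1 while 2 others, Dcx at 19.3 CPM and Igfbpl1 at 9.50 CPM, were highest. The median of the progenitor and neuroblast markers was -0.57 without TBI1, -0.33 without Sham2 and -0.20 without both, with 2 of 7 above 0 each time. The part of these cells and regions in the levels of the proliferative genes was not tested.

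**Figure D2:**
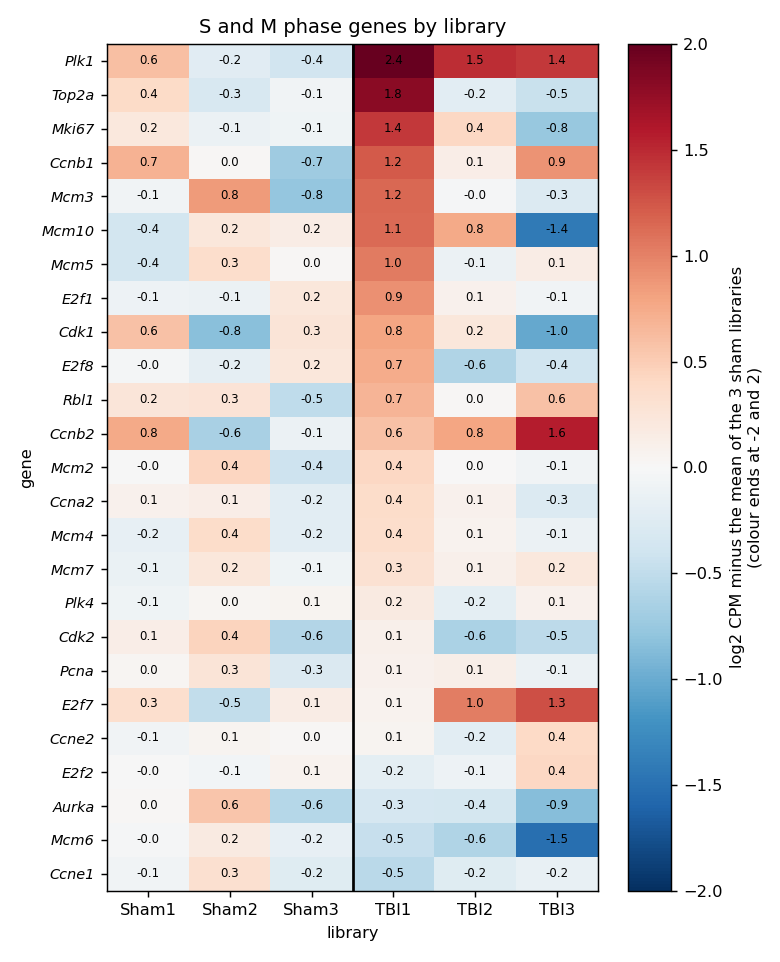
Each cell gives the log2 CPM of 1 of the 25 tested proliferative genes (rows) in 1 library (columns), less the average over sham, with genes ordered by their level in TBI1. High values gather in the TBI1 column, from Plk1 and Top2a at the top, while TBI2 and TBI3 hold a mixture of both signs.

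**Figure D3:**
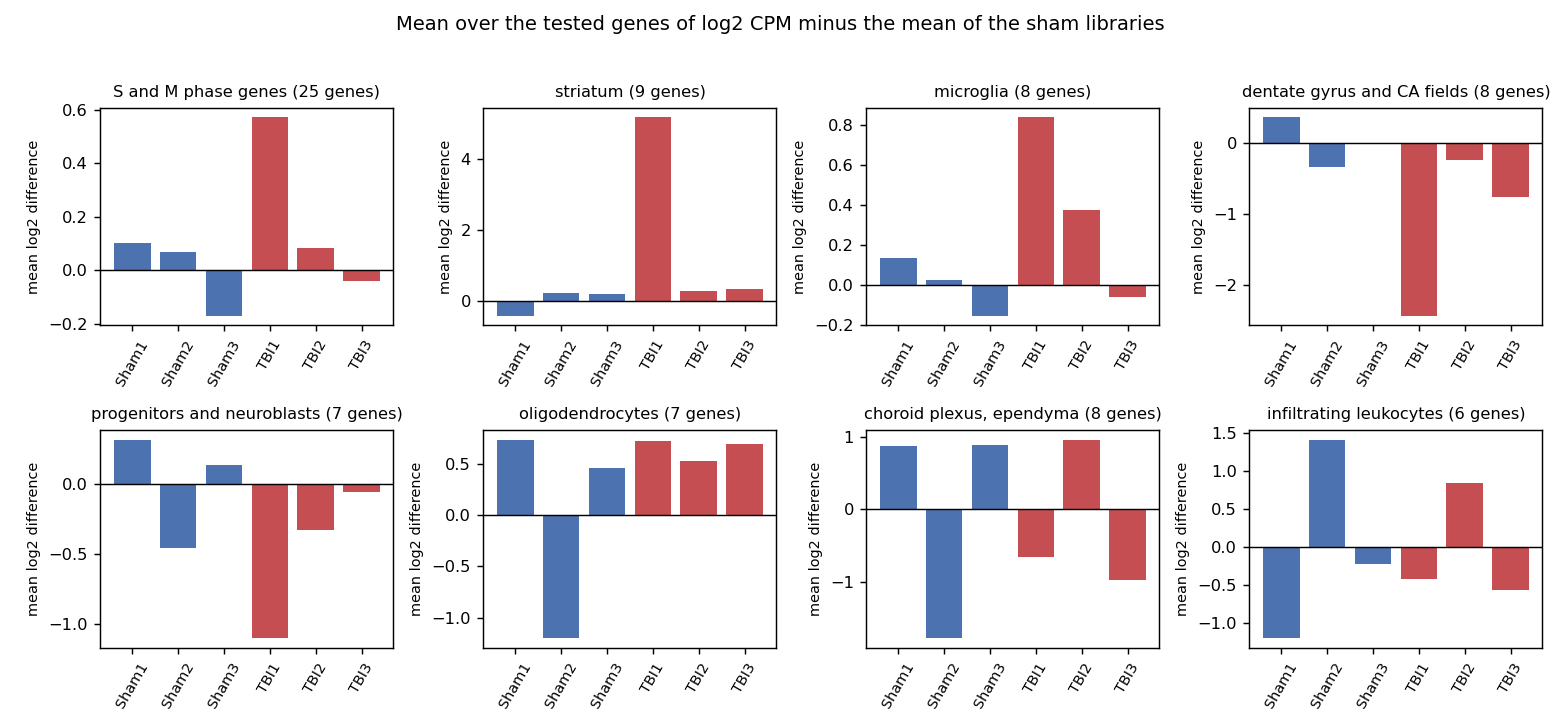
Bars give, for each library, the mean over the tested genes of a list of the difference in log2 CPM from the sham mean (sham blue, TBI red; the y axes differ in range). TBI1 is highest for the proliferative genes, at 0.57, and for the striatal markers, at 5.18, and lowest for the markers of the dentate gyrus and CA fields, at -2.43.

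Mki67, the nuclear protein Ki-67 found in cycling cells, was at 3.48, 2.77 and 2.84 CPM in Sham1 to Sham3 and at 8.16, 4.01 and 1.77 CPM in TBI1 to TBI3. The TBI libraries lay on both sides of the sham libraries, and TBI3 was the lowest of all 6. The log2 fold change was 0.62 (SE 0.53) and became -0.069 without TBI1. Top2a, the topoisomerase that untangles sister chromatids, was at 3.85, 2.34 and 2.81 CPM in sham and at 10.4, 2.53 and 2.14 CPM in TBI. Its log2 fold change of 0.74 (SE 0.64) rested on TBI1 as well, and was -0.37 without that library. Pcna, the sliding clamp of DNA polymerase, was the most abundant proliferative gene, at 73.3, 86.0 and 58.6 CPM in sham and 75.8, 77.5 and 66.4 CPM in TBI. All 3 TBI libraries lay within the range of sham, with a log2 fold change of 0.012 (SE 0.16). Pcna also serves in DNA repair, which does not need a dividing cell.

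Among the mitotic kinases Plk1, the polo-like kinase that drives entry into mitosis and cytokinesis, had the lowest p of all members. Plk1 (ENSMUSG00000030867.7, chromosome 7 of GRCm38, 122159439 to 122169873) was at 0.617, 0.324 and 0.287 CPM in sham and at 2.25, 1.17 and 1.12 CPM in TBI. All TBI libraries were above all sham libraries, with means of 0.409 ± 0.181 CPM and 1.52 ± 0.640 CPM (SD, n = 3 mice each). The log2 fold change was 1.88 (SE 0.52, edgeR adjusted p = 0.982), and it was 1.48 without TBI1, 1.74 without Sham2 and 1.33 without both. These levels rest on 11 to 25 counts in sham and 37 to 92 in TBI, on a scale where a count is not a single read. Aurka, the kinase of the spindle poles, pointed the other way, with 1.41 to 3.14 CPM in sham, 1.15 to 1.67 CPM in TBI and a log2 fold change of -0.58 (SE 0.40) that was -0.26 without Sham2. Plk4, which starts the duplication of centrioles, was at 2.69 to 2.97 CPM in sham and 2.497 to 3.26 CPM in TBI. Aurkb, the kinase of the chromosomal passenger complex, did not pass the filter and was listed at 0 in Sham3 and TBI2.

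Cdk1, the kinase of mitosis, was at 1.23, 0.424 and 0.964 CPM in sham and 1.42, 0.948 and 0.365 CPM in TBI, a log2 fold change of 0.063 (SE 0.64) that was -0.27 without Sham2 and -0.42 without TBI1. Its partners Ccnb1 and Ccnb2, the B cyclins, had log2 fold changes of 0.75 (SE 0.53) and 1.02 (SE 0.60). In both, the groups overlapped, and the highest level was in TBI1 for Ccnb1, at 1.74 CPM, and in TBI3 for Ccnb2, at 1.12 CPM. Ccna2, the A cyclin of S phase and G2, was at 4.61 to 5.86 CPM in sham and 4.41 to 6.93 CPM in TBI. Ccna2 shares 12.5% of its exonic bases with Exosc9 on the opposite strand, and Ccne2 shares 17.4% with Ints8. The E cyclins and Cdk2, which start S phase, gave log2 fold changes of -0.32 (Ccne1, SE 0.22), 0.10 (Ccne2, SE 0.21) and -0.38 (Cdk2, SE 0.37). None of them had an unadjusted p under 0.05. Without Sham2 the values were -0.15, 0.13 and -0.13 in the same order, and without both Sham2 and TBI1 -0.047, 0.15 and -0.40.

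The MCM genes encode a ring of 6 different subunits, Mcm2 to Mcm7, that is loaded on origins and later unwinds DNA. Mcm6 was the only one of the 6 with a value below 0. Mcm6 (ENSMUSG00000026355.11, chromosome 1, 128331590 to 128359664) was at 19.6, 22.6 and 17.7 CPM in sham and at 14.4, 13.0 and 6.94 CPM in TBI. All TBI libraries lay below all sham libraries, with means of 19.9 ± 2.47 CPM and 11.4 ± 3.95 CPM (SD, n = 3 each). The log2 fold change was -0.80 (SE 0.29, edgeR adjusted p = 0.982), and it lay between -1.001 and -0.55 when each library was left out in turn. Mcm2 was at 7.41, 10.04 and 5.55 CPM in sham and at 9.92, 7.49 and 7.05 CPM in TBI, with every TBI library inside the range of sham. The log2 fold changes of Mcm2, Mcm3, Mcm4, Mcm5 and Mcm7 lay between 0.089 and 0.43 (SEs 0.17 to 0.54). In each of Mcm3, Mcm5 and Mcm7 TBI1 was the highest library, at 13.0, 12.9 and 17.4 CPM, and in Mcm2, Mcm4 and Mcm6 Sham2 was. Without TBI1 only Mcm7, at 0.15, had a value above 0 among the 6 genes. Without Sham2, and without both libraries, 5 of the 6 were above 0, with medians of 0.33 and 0.18 against 0.15 over all libraries. Set per kilobase of annotated exon, the mean levels over all 6 libraries were 3.45 CPM for Mcm7, 3.36 for Mcm6, 3.33 for Mcm4, 1.91 for Mcm3, 1.86 for Mcm5 and 1.14 for Mcm2. Mcm10, which helps to start the loaded helicase, was at 1.08 CPM or less in every library.

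Of the E2F factors placed with the proliferative genes, E2f1, an activator of S phase genes, was at 9.88, 9.75 and 12.5 CPM in sham and 20.1, 11.3 and 10.1 CPM in TBI. TBI1 alone was above sham, and the log2 fold change of 0.37 (SE 0.30) became 0.0017 without it. E2f2, E2f7 and E2f8 did not exceed 1.38 CPM in any library. Rbl1, the pocket protein p107 of cycling cells, had a log2 fold change of 0.43 (SE 0.35), with 1.38 to 2.39 CPM in sham and 2.02 to 3.21 CPM in TBI.

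The D cyclins and their kinases link outside signals to the cycle and are also made by cells that do not divide. Ccnd2, which is used by progenitors of the dentate gyrus, was at 76.2, 95.1 and 85.2 CPM in sham and at 98.7, 80.9 and 40.6 CPM in TBI. The TBI libraries ran from the highest to the lowest of all 6, with a log2 fold change of -0.22 (SE 0.31) that was 0.067 without TBI3. Ccnd1 was at 52.6, 58.9 and 44.2 CPM in sham and at 72.2, 55.3 and 46.8 CPM in TBI, a log2 fold change of 0.16 (SE 0.20) that became -0.024 without TBI1. Ccnd1 shares 23.4% of its exonic bases with LTO1 on the opposite strand, and whether the counting used strand is not given in the sources used here. Ccnd3 was at 25.6, 16.1 and 26.8 CPM in sham and at 23.7, 14.0 and 12.4 CPM in TBI. Its log2 fold change was -0.45 (SE 0.32), and it was -0.65 without Sham2, -0.79 without TBI1 and -0.99 without both (edgeR adjusted p = 0.853), with an unadjusted p under 0.05 in the last 2 of these fits. Cdk4, at 76.1 CPM in Sham2, 61.3 CPM in TBI1 and 42.4 to 49.0 CPM in the other libraries, had a log2 fold change of -0.018 (SE 0.26) that was 0.32 without Sham2. Cdk4 shares 19.7% of its exonic bases with Tspan31 on the opposite strand, whose counts were also highest in Sham2 and TBI1. Cdk6 had one of 0.36 (SE 0.65) that was 1.02 without Sham2 and -0.032 without TBI1.

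Among the CDK inhibitors, Cdkn1a differed widely between sham mice. Cdkn1a, which encodes p21, a target of p53 and of stress signals, was at 4.49, 91.9 and 13.5 CPM in Sham1 to Sham3 and at 32.1, 33.2 and 33.0 CPM in TBI1 to TBI3. The TBI libraries lay close together, while Sham2 was the highest library of all and the other sham libraries were the lowest. The sham mean was 36.6 ± 48.1 CPM and the TBI mean 32.7 ± 0.591 CPM (SD, n = 3 each), with a log2 fold change of -0.16 (SE 0.96). Without Sham2 the log2 fold change was 1.87 (edgeR adjusted p = 0.997), so the direction of Cdkn1a depended on this library. Of 16 other p53 targets, 7 were highest in Sham2 (43.8%, against 23.7% of all genes) and 5 were lowest there (31.2%, against 23.0%). Of the 16, 0 had an unadjusted p under 0.05 (their lowest adjusted p in edgeR was 0.982) and the median log2 fold change was -0.061 with 7 above 0. Without Sham2 the median was 0.069 with 10 of 16 above 0, and without both libraries 0.036 with 8 of 16. Gadd45b, a stress gene chosen from that list after its values were seen, was also highest in Sham2, with 15.9, 100.2 and 13.9 CPM in sham and 22.6, 17.6 and 14.4 CPM in TBI. The most abundant genes of the list, Zmat3 and Ccng1, had log2 fold changes of 0.082 (SE 0.13) and 0.054 (SE 0.23).

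Cdkn1b and Cdkn2d, the inhibitors with the highest mean CPM over the 6 libraries (Cdkn1a was higher in Sham2), were at opposite sides. Cdkn1b (ENSMUSG00000003031.14, chromosome 6, 134920401 to 134925513), which encodes p27 and helps to keep cells out of the cycle, was at 45.7, 42.3 and 38.2 CPM in sham and at 48.3, 57.9 and 56.4 CPM in TBI. The groups did not overlap, although Sham1 and TBI1 lay close together, and the log2 fold change was 0.37 (SE 0.13, edgeR adjusted p = 0.982). Cdkn2d (ENSMUSG00000096472.2, chromosome 9, 21288410 to 21291407), the INK4 inhibitor p19 that is expressed in neurons, was at 56.9, 42.2 and 52.0 CPM in sham and at 32.4, 39.0 and 38.2 CPM in TBI. Every TBI library was below every sham library, with a log2 fold change of -0.46 (SE 0.16, edgeR adjusted p = 0.982) that lay between -0.58 and -0.36 when each library was left out. The 8 general markers of neurons summed to 6202 to 6542 CPM in sham and 5409 to 5663 CPM in TBI. Their log2 fold changes ran from -0.79 to 0.79 (median 0.019), with 4 higher and 4 lower. In edgeR 2 of the 8 had an unadjusted p under 0.05 (25%, against 4.29% of all genes), both lower in TBI. In 2 of the 8 the groups did not overlap (25%, against 10.2%), both lower as well. The part of the neuron markers in the level of Cdkn2d was not tested. Cdkn1c, Cdkn2c and Cdkn2b, which encode p57, p18 and p15, had log2 fold changes of 0.063, -0.11 and 0.19 with SEs of 0.28 to 0.54. With each library left out they ran from -0.33 to 0.33, -0.24 to 0.14 and -0.23 to 0.52. The value of -0.33 for Cdkn1c was found without Sham2. Cdkn1c shares 30.7% of its exonic bases with an antisense gene. Cdkn2a, the locus of p16 and ARF, was listed at 0 in Sham3, TBI1 and TBI3 and did not pass the filter.

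**Figure D4:**
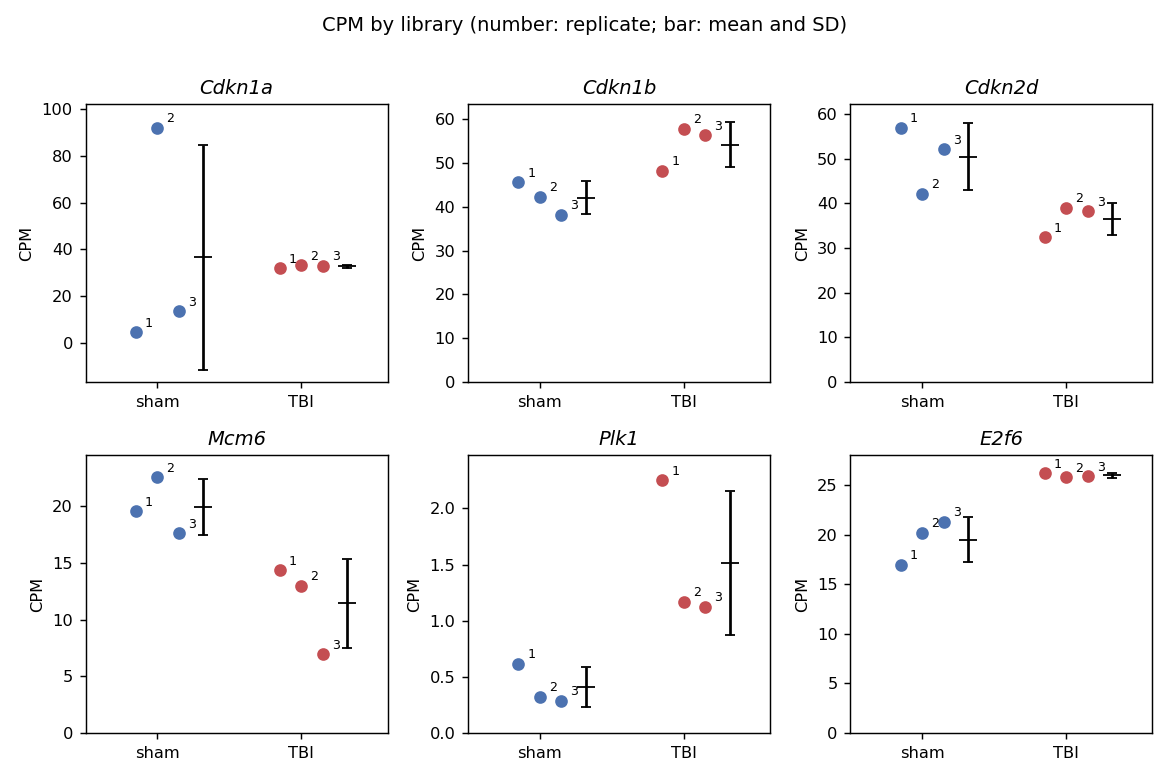
CPM (y axis, linear) of 3 inhibitors and 3 other members in each library, with sham in blue, TBI in red, the replicate number beside each point, and the mean and SD of each group as a bar. Cdkn1a spans 4.49 to 91.9 CPM within sham and 32.1 to 33.2 CPM within TBI, and in the other 5 genes the groups do not overlap.

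Among the pocket proteins and the remaining E2Fs, E2f6, a repressor that works with Polycomb proteins and not through the pocket proteins, had the narrowest spread in TBI. E2f6 (ENSMUSG00000057469.8, chromosome 12, 16810963 to 16839742) was at 17.0, 20.2 and 21.3 CPM in sham and at 26.2, 25.9 and 25.9 CPM in TBI. The groups did not overlap, with means of 19.5 ± 2.26 CPM and 26.0 ± 0.203 CPM (SD, n = 3 each) and a log2 fold change of 0.41 (SE 0.14, edgeR adjusted p = 0.982). Leaving out each library gave values between 0.33 and 0.48. E2f3, an activator, was at 34.7, 42.4 and 33.4 CPM in sham and at 33.1, 25.4 and 25.8 CPM in TBI. The groups of E2f3 did not overlap by a narrow margin, and its log2 fold change was -0.39 (SE 0.17), with an unadjusted p just over 0.05. Rb1, the retinoblastoma protein, was at 32.9, 28.7 and 34.1 CPM in sham and at 34.9, 33.5 and 37.6 CPM in TBI, a log2 fold change of 0.15 (SE 0.13). Rbl2, the pocket protein p130 of resting cells, was at 55.9, 38.3 and 50.6 CPM in sham and at 50.6, 51.7 and 49.98 CPM in TBI. Its TBI libraries lay within the range of sham, and its log2 fold change was 0.072 (SE 0.16). E2f4 and E2f5, partners of the pocket proteins in resting cells, had log2 fold changes of -0.0010 (SE 0.19) and -0.20 (SE 0.23).

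The neuronal CDKs were, Cdk15 apart, far more abundant than Cdk1 and Cdk2 and showed no direction in common. Per kilobase of exon, the mean level was 65.1 CPM for Cdk16, 45.2 CPM for Cdk5, 27.2 CPM for Cdk17, 10.8 CPM for Cdk14 and 7.06 CPM for Cdk18, against 0.181 CPM for Cdk1 and 0.527 CPM for Cdk2. Cdk15 was at 0.317 CPM per kilobase. Of the 6 genes 3 were higher and 3 lower in TBI (median of the log2 fold changes -0.073), 0 of them had an unadjusted p under 0.05 in edgeR (4.29% of all genes), and their lowest adjusted p was 0.982. Without Sham2 4 of the 6 were higher (median 0.025), without TBI1 2 of 6 (median -0.22) and without both 3 of 6 (median -0.088). The mean log2 level of the 6 genes relative to the sham mean was -0.055 in TBI2, -0.10 in TBI1 and -0.25 in TBI3, and lay between -0.052 and 0.081 in sham libraries.

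Cdk5, which acts in neuronal migration, synaptic plasticity and, when its activator is cleaved, in neuronal death, was at 99.8, 87.2 and 98.5 CPM in sham and at 90.5, 104.1 and 108.1 CPM in TBI. The groups overlapped, with a log2 fold change of 0.084 (SE 0.12). The transcripts of its activators p35 (Cdk5r1) and p39 (Cdk5r2) had log2 fold changes of -0.13 (SE 0.15) and 0.16 (SE 0.26). Cdk5r1 was at 267 CPM in TBI2 and 231 CPM in TBI3, both below the sham range of 296 to 312 CPM, and at 338 CPM in TBI1, above it. Cleavage of p35 to p25 is a change in the protein and is not seen in RNA. Cdk16, a PCTAIRE kinase activated by cyclin Y, was at 269, 266 and 303 CPM in sham and at 263, 273 and 337 CPM in TBI, a log2 fold change of 0.059 (SE 0.13). Cdk14, a PFTAIRE kinase that works with cyclin Y at the membrane, was at 272, 159 and 263 CPM in sham and at 88.6, 255 and 189 CPM in TBI. TBI1 was the lowest library for Cdk14, and the log2 fold change of -0.38 (SE 0.40) became -0.059 without it. Cdk17, another PCTAIRE kinase, was highest in TBI1, at 258 CPM against 114 to 178 CPM elsewhere, and its log2 fold change of 0.044 became -0.40 without TBI1, with an unadjusted p under 0.05 and an edgeR adjusted p of 0.906. Cdk18 was highest in Sham2, at 63.9 CPM against 20.7 to 31.8 CPM elsewhere, so that its log2 fold change was -0.34 over all libraries and 0.27 without Sham2. Of the activators of these kinases that were listed (Cdk5r1, Cdk5r2, Ccny and Ccnyl1), 2 were higher and 2 lower (median 0.059), 0 had an unadjusted p under 0.05 in edgeR, and all 4 were highest in TBI1. Without TBI1, and without both libraries, 1 of the 4 was higher (medians -0.14 and -0.22).

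**Figure D5:**
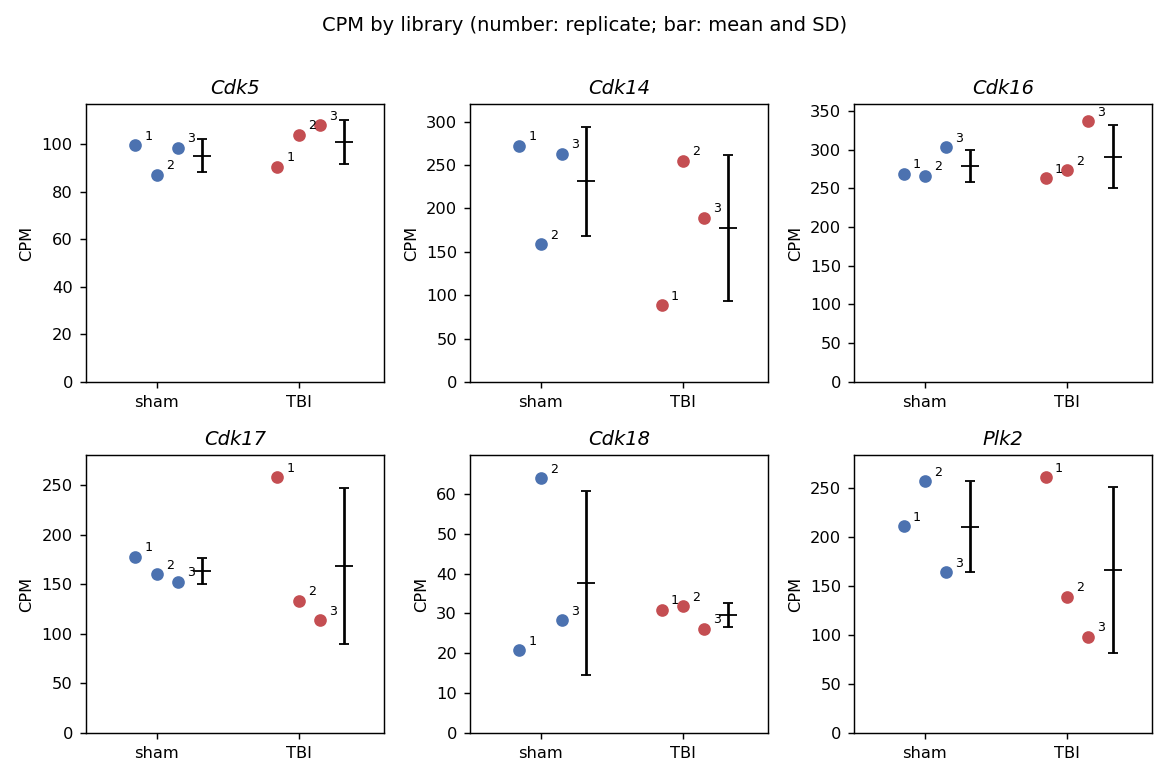
CPM (y axis, linear from 0) of 5 neuronal CDKs and Plk2 in each library, with sham in blue, TBI in red, the replicate number beside each point, and the mean and SD of each group as a bar. The groups overlap in all 6 genes, with TBI1 lowest for Cdk14 and highest for Cdk17 and Plk2, and Sham2 highest for Cdk18.

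Plk2 and Plk3 share the polo-like fold with Plk1 but are induced by neuronal activity and stress, and Plk2 weakens overactive synapses. Plk2 was at 211, 257 and 164 CPM in sham and at 260, 139 and 98.1 CPM in TBI. TBI2 and TBI3 were below all sham libraries and TBI1 was the highest of all 6, with a log2 fold change of -0.34 (SE 0.37) that was -0.83 without TBI1 (edgeR adjusted p = 0.906). Plk3 was at 8.17, 10.3 and 8.39 CPM in sham and at 13.3, 11.03 and 6.88 CPM in TBI, a log2 fold change of 0.22 (SE 0.28) that was 0.0014 without TBI1.

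The transcriptional CDKs act on RNA polymerase II and on the Mediator complex. Of the 8 genes of this kind, including Cdk10 and Cdk20, whose roles lie elsewhere, 4 were higher and 4 lower in TBI, with log2 fold changes from -0.25 to 0.29. The median was -0.026 over all libraries. Without TBI1 it was -0.079 with 2 of the 8 higher. Without Sham2 it was 0.058, and without both libraries -0.0043, each with 4 of the 8 higher. Cdk13, which phosphorylates the tail of the polymerase during elongation, was at 59.0, 60.7 and 54.7 CPM in sham and at 53.7, 48.7 and 44.1 CPM in TBI. All TBI libraries were below all sham libraries by a narrow margin, with a log2 fold change of -0.25 (SE 0.12). Cdk19, a kinase of Mediator, was at 104, 74.8 and 94.3 CPM in sham and at 153, 61.2 and 120 CPM in TBI, where both the highest and the lowest of the 6 libraries were found. Its log2 fold change was 0.29 (SE 0.33) and -0.0035 without TBI1. Cdk7, Cdk8, Cdk9, Cdk10, Cdk12 and Cdk20 had log2 fold changes between -0.15 and 0.15.

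The 3 genes that carry a Cdkn symbol outside the Cip/Kip and INK4 families are Cdkn2aip, Cdkn2aipnl and Cdkn3. Cdkn2aip and Cdkn2aipnl are named for a protein that binds ARF and its homologue, and Cdkn3 is a phosphatase that acts on CDKs. Cdkn2aip (ENSMUSG00000038069.6, chromosome 8, 47709344 to 47713932) was at 17.8, 20.6 and 21.6 CPM in sham and at 14.9, 15.3 and 16.1 CPM in TBI. The groups did not overlap, and the log2 fold change was -0.37 (SE 0.15, edgeR adjusted p = 0.982). It shares 17.0% of its exonic bases with the antisense gene E030037K01Rik. Cdkn2aipnl was at 54.3, 57.0 and 53.3 CPM in sham and at 52.3, 63.1 and 62.5 CPM in TBI, a log2 fold change of 0.11 (SE 0.12). Cdkn3 did not pass the filter, with at most 0.897 CPM, in Sham2.

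Of the genes known mainly from germ cells or meiosis, Ccna1, the germline A cyclin, was at 1.38, 0.548 and 0.755 CPM in sham and at 0.245, 0.253 and 0 CPM in TBI. The groups did not overlap, but the values come from at most 56 counts, and the log2 fold change of -2.41 had an SE of 1.02 and the unadjusted p was just over 0.05. Mcm8 and Mcm9, which act together in the repair of DNA by recombination, were at 8.37, 8.60 and 6.72 CPM and at 7.33, 8.35 and 12.6 CPM in sham. In TBI they were at 6.61, 6.04 and 6.97 CPM and at 14.7, 9.92 and 10.5 CPM. Their log2 fold changes were -0.27 (SE 0.20) and 0.32 (SE 0.28), and that of Mcm9 was 0.12 without TBI1 and 0.037 without both libraries. Mcm9 shares 19.2% of its exonic bases with Asf1a on the opposite strand. Aurkc did not pass the filter, and Ccnb3 was listed at 0 in every library.

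Genes that work with the members but are not among them were taken from lists of known function. Of 16 genes of origin licensing and firing 8 were higher and 8 lower in TBI, and only Gins2 had an unadjusted p under 0.05. Gins2, a subunit of the GINS complex of the active helicase, was at 43.2, 55.3 and 37.4 CPM in sham and at 27.5, 33.7 and 27.8 CPM in TBI, so that it was lower in all TBI libraries, as Mcm6 was. Its log2 fold change was -0.61 (SE 0.18, edgeR adjusted p = 0.982). Of 12 genes that switch CDKs or turn cyclins over, 6 were higher and 6 lower. Among them Cdc25c, the phosphatase that activates Cdk1, had an unadjusted p under 0.05, with a log2 fold change of -1.94 (SE 0.67, edgeR adjusted p = 0.982) and at most 1.35 CPM in any library. Of 8 partners of the E2F and pocket proteins 3 were higher and 5 lower, and 0 had an unadjusted p under 0.05 in edgeR. The most abundant of these, Tfdp1, the partner with which E2F factors bind DNA, had a log2 fold change of -0.013 (SE 0.22), and Lin52, a subunit of the MuvB core, one of 0.15 (SE 0.22).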

How the data were processed

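Hippocampal RNA of 3 sham and 3 TBI mice was sequenced, with 1 library per mouse, and groups and replicate numbers were taken from the sample labels. Per the labels and the paper, the authors used FastQC, HISAT2 on GRCm38 and StringTie. The authors deposited 1 table per library, holding estimated counts for each gene as whole numbers that were not normalized. Low values pile up at multiples of 4 (the value 4 occurs 5109 times and 3 occurs 2325 times), which keeps counts from standing for single reads, so no counting interval was computed. The versions of HISAT2 and StringTie, the annotation release, strandedness and how coverage was turned into counts are not given in the sources used here. Depth ran from 31630936 to 41771872 counts per library.

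Of 52550 gene identifiers 52403 were matched to symbols of GENCODE vM21, without their version. R 4.3.3 was used with edgeR 4.0.16 and DESeq2 1.42.0. Counts were filtered with filterByExpr, scaled by TMM (factors 0.970 to 1.02) and entered in the quasi-likelihood test of edgeR over 18795 genes, with Benjamini-Hochberg adjustment. The paper's tool, DESeq2, was run as an alternative. The standard error is the log2 fold change divided by the root of the F statistic. Log2 levels used a prior count of 2, and CPM per kilobase used the union of annotated exons. The fits were also run on simulated counts, whose outcome is not given here, so how large a change they could miss is not stated.

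Members named with every library's value were Mki67, Top2a, Pcna, Mcm2, Cdk1, Ccnd1, Cdkn1a and Cdk5, the 2 most abundant of each role, those with an unadjusted p under 0.05 and those whose groups do not overlap. E2f1 and Ccnd3 are also given in every library and were chosen after their values were seen. Others are given by ranges or single values. The rule for the members uses symbols and no values, but the rule and all gene lists were chosen with earlier results of these data known. An exact permutation test of 3 against 3 mice cannot give a p below 0.1, and none was run. Of the members 28 share exonic bases with another annotated gene.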

Additional observations from a re-analysis of the deposited data

How the results depend on the processing

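The alternatives were DESeq2 with and without its defaults, DESeq2's size factors or library totals in edgeR, filters of 1 count in any library or 10 in every library, counts divided by 4, an adjusted p of 0.05, each library left out and the replicate number as a block. Leaving out both Sham2 and TBI1 was added after seeing the data. Members called were 0 in every one of these fits. Genes called, 0 in edgeR, were 46 with DESeq2's defaults, 43 with DESeq2 on the filtered genes, 3 without both libraries, and 0 to 1 with each library left out (1 without TBI1). Members at an unadjusted p under 0.05, 6 in the fit reported, were 3 to 8 with each library left out (3 without Sham1 or Sham3, 4 without Sham2 or TBI2, 8 without TBI1) and 8 without both Sham2 and TBI1. Members whose groups do not overlap, 9 in all, were 10 to 18 with each library left out (10 without Sham1, where 18% of all genes did not overlap, and 18 without Sham3 or TBI1, with 20.8% and 22.7%) and 27 without both Sham2 and TBI1, where 37.1% of all genes did not overlap. The median of the neuronal CDKs, -0.073, was 0.053 with counts divided by 4, where Cdk15 was no longer tested, and -0.22 to 0.025 with each library left out. The median of the proliferative genes, 0.10, ran from -0.041 to 0.31 when libraries were left out.

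Of the 28 named members 11 had a value on the other side of 0 in at least 1 of up to 15 fits (Cdk1 and Ccna1 had fewer, since they did not pass every filter), none of them called. With each library left out, the log2 fold change ran from -0.024 to 0.29 for Ccnd1, -0.49 to 0.067 for Ccnd2, -0.42 to 0.43 for Cdk1, -0.065 to 0.13 for Cdk16, -0.0035 to 0.58 for Cdk19, -0.68 to 1.87 for Cdkn1a, -0.10 to 0.33 for Mcm2, -0.069 to 1.004 for Mki67, -0.13 to 0.15 for Pcna, -0.071 to 0.20 for Rbl2 and -0.37 to 1.11 for Top2a. Without both Sham2 and TBI1 it was -0.75 for Cdk1, -0.13 for Cdk19, 1.88 for Cdkn1a, -0.13 for Mki67, -0.069 for Rbl2 and -0.52 for Top2a.

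The deviations of same-numbered libraries from their group means had correlations of -0.0996, -0.065 and 0.15. Those of differently numbered libraries ran from -0.18 to 0.21. With 3 libraries per group these values cannot decide whether the numbers pair the mice. With the replicate block 2 members had an unadjusted p under 0.05 (3.85% of all genes), and the log2 fold change of Cdkn1a was 0.94. Low counts limit Plk1, Ccnb1, Ccnb2, Cdk1, Mcm10, Ccna1, E2f2, E2f7, E2f8, Cdkn2b, Cdk15 and the 5 members that did not pass the filter.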
